A study of Mus musculus with 11 samples.

Results

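The mouse genes Ms4a1, Cd79b, Pax5, Blk, Jchain, Tnfrsf17, Pou2af1 and Prdm1 were followed as a set of B cell and plasma cell genes in whole lung. They were chosen by name: every probe whose gene name in the scanner files was one of the 8, with Jchain written as Igj, was taken. That gave 8 of 27670 gene names and 11 of 41174 probes. All 8 genes and all 11 probes passed the filter on dim probes, as did 21874 genes and 32945 probes of the whole array. The lungs came from mice labelled Foxa3 KO and from littermate control mice, called wild type here, and each had been challenged with OVA (ovalbumin, the usual model allergen) or with saline. Total lung RNA was measured on 11 one-colour (Cy3) arrays of 60-base probes, in 4 groups: 3 Foxa3 knockout OVA, 3 wild-type OVA, 2 Foxa3 knockout saline and 3 wild-type saline samples. Strain, age, the number of challenges and the kind of knockout allele were not given in the sources used here. Nothing in the labels ties an array to an animal, and p-values then measure only the spread between these samples, which may be technical.

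B cells carry antibody on their surface as the antigen receptor, and after contact with antigen and T cell help some of them become plasma cells, which secrete antibody. Ms4a1, Cd79b, Pax5 and Blk belong to the B cell stage: Ms4a1 encodes the surface protein CD20, Cd79b a signalling chain of the antigen receptor, Pax5 the transcription factor that keeps B cell identity, and Blk a Src-family kinase of B cells. Jchain, Tnfrsf17 and Prdm1 belong to the antibody-secreting stage: Jchain encodes the chain that joins secreted IgM and IgA into polymers, Tnfrsf17 the survival receptor BCMA, and Prdm1 the repressor Blimp-1, which is also active in T cells and some epithelia. Pou2af1 encodes a coactivator of the octamer-binding factors and is used at both stages. In allergic lungs, B cells and plasma cells gather around airways and vessels and are a local source of antibody.

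Of the 11 probes, 2 spanned more genome than their 60 bases, so each covers an exon junction; the positions here are those of the array design, in build mm7. They are shown in lower case because they show what the array reads for these genes and because the Pax5 one did not follow the other Pax5 probe. The Pax5 junction probe lies at chr4:44551296-44583850 on the minus strand, a span of 32555 bases, and the Blk probe at chr14:58242375-58243512 on the minus strand, a span of 1138 bases.
Pax5 junction probe: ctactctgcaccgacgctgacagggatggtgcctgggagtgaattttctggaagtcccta
Blk probe: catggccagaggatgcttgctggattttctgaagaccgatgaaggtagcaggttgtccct
The other probes each lie in 1 block of 60 bases. On the minus strand, Ms4a1 was read at chr19:10931002-10931061 and chr19:10931462-10931521, Cd79b at chr11:106420507-106420566, Pax5 also at chr4:44538878-44538937, Jchain at chr5:88461353-88461412 and chr5:88461523-88461582, and Prdm1 at chr10:44250799-44250858. Pou2af1 was read on the plus strand at chr9:51218585-51218644, and Tnfrsf17 on the minus strand at bases 436643 to 436702 of the sequence of chromosome 16 that mm7 leaves without a place. Whether a probe lies in coding sequence or in a UTR was not annotated in the sources used here.

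Promoter sequence was matched for 5 of the 8 genes (Pax5, Jchain, Tnfrsf17, Pou2af1 and Prdm1) in a RefSeq table of build GRCm38.p6. Those of Jchain and Tnfrsf17 are shown, since these genes stood highest together on the same arrays, as the 250 bases before the start, 5′ to 3′ on the gene's strand. Jchain is at chr5:88527898-88528147 on the minus strand and Tnfrsf17 at chr16:11313559-11313808 on the plus strand.
Jchain promoter: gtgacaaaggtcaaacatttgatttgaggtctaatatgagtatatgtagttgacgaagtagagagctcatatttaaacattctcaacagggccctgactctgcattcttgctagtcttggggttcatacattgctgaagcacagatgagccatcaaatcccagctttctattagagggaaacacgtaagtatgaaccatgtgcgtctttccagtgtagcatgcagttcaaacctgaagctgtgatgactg
Tnfrsf17 promoter: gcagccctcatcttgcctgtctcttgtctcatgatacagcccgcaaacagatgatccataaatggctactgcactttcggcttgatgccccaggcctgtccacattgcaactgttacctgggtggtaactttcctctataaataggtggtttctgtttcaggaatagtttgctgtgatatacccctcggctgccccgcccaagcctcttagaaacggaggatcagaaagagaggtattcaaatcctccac
On both strands, 2 motifs were searched: the octamer ATGCAAAT, the element at which the product of Pou2af1 acts, and the E box CAGGTG, a site of E proteins. Neither motif was found in the 250 bases of Jchain, Tnfrsf17, Pax5 or Pou2af1, so no letter is in capitals, and Prdm1 held 1 E box. Among 32851 promoters of the same length, 1.6% held the octamer and 17.2% the E box.

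Levels are given as log2 of the processed intensity minus the array's own 75th percentile. Thus 0 is the level of that percentile and 1 unit is a doubling. Levels of different genes come from different probes and were not set against each other. A summed level of a list weighs its brightest probes most. Tests are two-sided limma tests over all 21874 genes, with Benjamini-Hochberg adjusted p, and a gene was called at an adjusted p under 0.05. At an unadjusted p under 0.05 were 6617 of these genes after OVA in the knockout and 7987 in the wild type. Between genotypes there were 1093 after OVA and 713 after saline. Counts of listed genes at that level are to be read beside these. The arrays came from 3 slides and 1 scan day. Slide 1 held knockout OVA 1, wild-type OVA 3, knockout saline 2 and wild-type saline 1. Slide 2 held knockout OVA 3, wild-type OVA 1, knockout saline 1 and wild-type saline 2, and slide 3 held knockout OVA 2, wild-type OVA 2 and wild-type saline 3. Foxa3 itself was not well above background on any of the 3 knockout OVA (-9.07 to -7.62) or 2 knockout saline arrays (-8.62 to -8.45). It was well above background on all 3 wild-type OVA (-4.00 to -3.89) and 3 wild-type saline arrays (-6.08 to -5.87). Between 71.1% and 78.9% of probes were well above background per array. Of 6 lung markers, all were measured and limma called none after OVA (2 in the knockout and 4 in the wild type at an unadjusted p under 0.05), and their mean level was between 5.84 and 6.35 on every array. In whole lung, fewer cells of a type and less RNA per cell cannot be told apart.

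**Figure D1:**
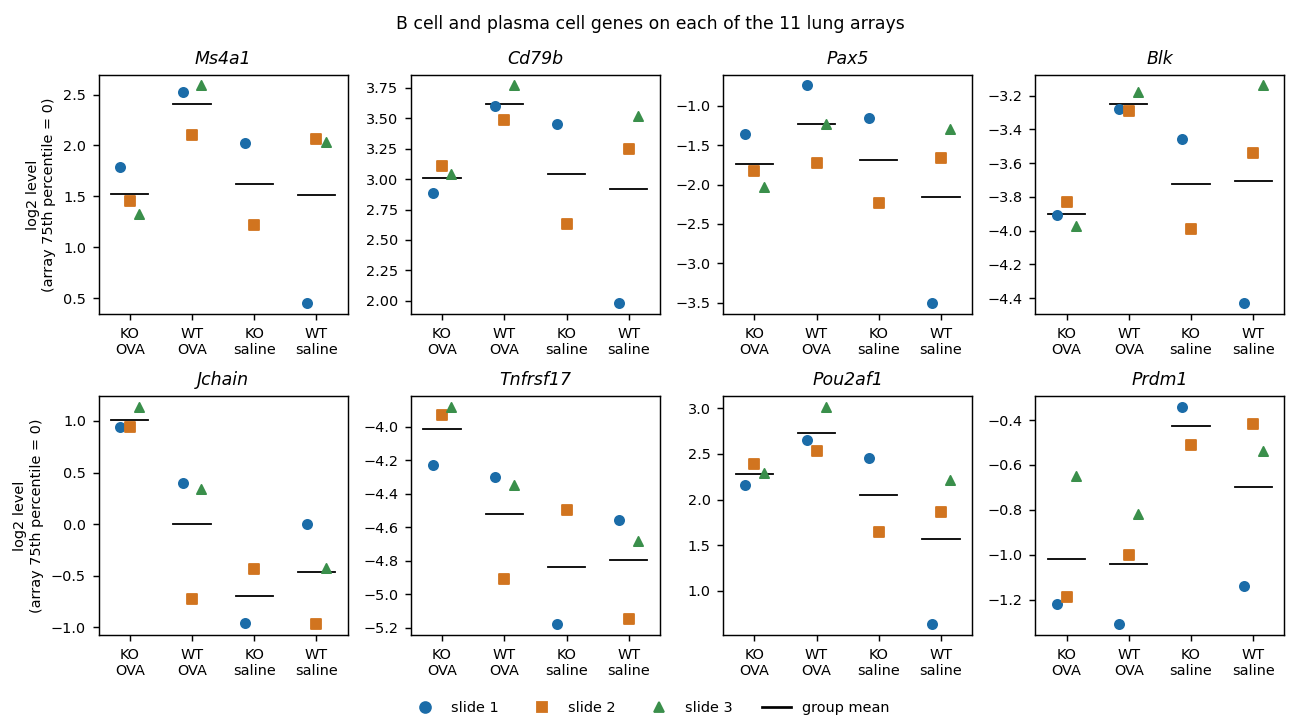
Levels of the 8 genes on each of the 11 arrays (y axis, log2 of processed intensity with the array's 75th percentile at 0; x axis, genotype and challenge). Each point is 1 array with its slide as shape and colour, and the line is the group mean. Jchain lay between 0.94 and 1.14 on the knockout OVA arrays and at 0.40 or lower on every other array.

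Jchain was the one gene of the 8 that passed the test in any comparison: it rose after OVA in the knockout, 3.27-fold. Its levels were 0.94, 1.14 and 0.94 in knockout OVA lungs and -0.72, 0.34 and 0.40 in wild-type OVA lungs. They were -0.43 and -0.96 in knockout saline lungs and 0.00, -0.97 and -0.42 in wild-type saline lungs. All 3 knockout OVA arrays were above the other 8, and the wild-type OVA and wild-type saline arrays overlapped. The difference between OVA and saline was 1.71 ± 0.37 (log2, SE; limma adjusted p = 0.0298) in the knockout, with 1.91 on slide 1 and 1.38 on slide 2. In the wild type it was 0.46 ± 0.34 (adjusted p = 0.35), with 0.40, 0.24 and 0.75 on slides 1 to 3. The call in the knockout did not hold with slide as a block (1.62, limma adjusted p = 0.0585) or without any one slide (adjusted p 0.338, 0.0862 and 0.076 without slides 1, 2 and 3). It was also lost without knockout OVA array 1 (0.0742) or 3 (0.0859), knockout saline array 1 (0.112) or 2 (0.182), or wild-type saline array 3 (0.0507), while the difference stayed between 1.44 and 1.97 without any one array.

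The second Jchain probe had lower signal and the same pattern. It gave -0.39, -0.48 and -0.83 in knockout OVA lungs, -2.25, -1.24 and -1.03 in wild-type OVA lungs, -1.82 and -2.28 in knockout saline lungs and -1.21, -2.39 and -1.92 in wild-type saline lungs. Again the 3 knockout OVA arrays were above the rest. Tested on its own among all probes, it differed by 1.48 ± 0.41 after OVA in the knockout (limma adjusted p = 0.0608), which is not a call.

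Tnfrsf17, the receptor through which plasma cells take survival signals from Tnfsf13b and Tnfsf13, had its highest levels on the same arrays as Jchain. Its levels were -4.23, -3.88 and -3.93 in knockout OVA lungs, -4.91, -4.35 and -4.30 in wild-type OVA lungs, -4.50 and -5.18 in knockout saline lungs and -4.56, -5.15 and -4.68 in wild-type saline lungs. The knockout OVA arrays did not overlap any other group, by a margin of less than 0.1 to the nearest wild-type OVA array. The probe was dim, with processed intensities from 27.16 to 88.39, though well above background on all 11 arrays. Before scaling, knockout OVA array 1 read 58.66, beside 56.69 on wild-type OVA array 2 and 56.54 on wild-type saline array 3. After OVA it differed from saline by 0.83 ± 0.27 in the knockout (limma adjusted p = 0.0859, slides 0.95 and 0.57) and 0.28 ± 0.24 in the wild type (adjusted p = 0.451, slides 0.26, 0.24 and 0.33). Neither passed the test. The authors' deposited value table gave 0.38 in the knockout and 0.05 in the wild type. Without knockout saline array 2 the knockout difference was 0.49, and without wild-type saline array 2 the wild-type one was 0.10.

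Prdm1, the repressor that drives plasma cell differentiation, did not share this pattern. Its levels were -1.22, -0.65 and -1.19 in knockout OVA lungs, -1.0, -0.82 and -1.31 in wild-type OVA lungs, -0.51 and -0.34 in knockout saline lungs and -1.14, -0.42 and -0.54 in wild-type saline lungs. Both knockout saline arrays were above all 3 knockout OVA arrays, whereas the wild-type groups overlapped. The OVA difference was -0.60 ± 0.26 in the knockout (limma adjusted p = 0.159, slides -0.88 and -0.69) and -0.34 ± 0.23 in the wild type (adjusted p = 0.318, slides -0.17, -0.58 and -0.28). The sign was negative on each slide in both genotypes, and neither difference passed the test.

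Pou2af1, the octamer coactivator of B cells and plasma cells, was the nearest to a call after OVA in the wild type. Its levels were 2.16, 2.29 and 2.39 in knockout OVA lungs, 2.53, 3.02 and 2.65 in wild-type OVA lungs, 1.64 and 2.45 in knockout saline lungs and 0.63, 1.86 and 2.21 in wild-type saline lungs. The wild-type OVA arrays were above all the others, and wild-type saline array 1 was the lowest of the 11. In the wild type, OVA minus saline was 1.17 ± 0.38 (limma adjusted p = 0.0595, slides 2.02, 0.68 and 0.81). Without wild-type saline array 1 it was 0.70 (limma adjusted p = 0.11), and in the knockout it was 0.23 ± 0.42 (adjusted p = 0.762, slides -0.29 and 0.75).

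Ms4a1, which encodes CD20, had levels of 1.79, 1.33 and 1.45 in knockout OVA lungs, 2.10, 2.59 and 2.53 in wild-type OVA lungs, 1.22 and 2.02 in knockout saline lungs and 0.45, 2.06 and 2.03 in wild-type saline lungs. Wild-type OVA arrays were the highest, but 1 of them was within 0.1 of 2 wild-type saline arrays. OVA minus saline was 0.89 ± 0.42 in the wild type (limma adjusted p = 0.157) and -0.09 ± 0.47 in the knockout (adjusted p = 0.919). By slide, the wild-type difference was 2.08 on slide 1, against 0.04 and 0.56 on slides 2 and 3. The second Ms4a1 probe differed by 0.90 ± 0.42 in the wild type and -0.09 ± 0.47 in the knockout.

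Cd79b, the receptor's signalling chain, had levels of 2.89, 3.04 and 3.11 in knockout OVA lungs, 3.49, 3.77 and 3.60 in wild-type OVA lungs, 2.63 and 3.45 in knockout saline lungs and 1.98, 3.25 and 3.52 in wild-type saline lungs. Levels on the wild-type OVA and wild-type saline arrays overlapped. OVA minus saline was 0.70 ± 0.37 in the wild type (limma adjusted p = 0.203, slides 1.61, 0.24 and 0.25) and -0.03 ± 0.41 in the knockout (adjusted p = 0.974, slides -0.56 and 0.48). As for Ms4a1, slide 1 carried most of the wild-type difference.

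Pax5, the B cell identity factor, had levels of -1.36, -2.03 and -1.83 in knockout OVA lungs, -1.72, -1.23 and -0.74 in wild-type OVA lungs, -2.23 and -1.15 in knockout saline lungs and -3.51, -1.66 and -1.30 in wild-type saline lungs. All pairs of groups overlapped. OVA minus saline was 0.93 ± 0.56 in the wild type (limma adjusted p = 0.263), with 2.77 on slide 1 and -0.06 and 0.07 on slides 2 and 3. In the knockout it was -0.05 ± 0.62 (adjusted p = 0.969). The junction probe was well above background on 9 of 11 arrays and differed by 0.20 ± 0.50 in the wild type. On that probe wild-type saline array 1 (-5.77) was the highest of the 3 wild-type saline arrays (-6.21 and -6.17 on the other 2), whereas on the brighter probe it was the lowest.

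Blk, the B cell kinase, had the tightest OVA groups of the set: -3.91, -3.97 and -3.83 in knockout OVA lungs and -3.29, -3.18 and -3.28 in wild-type OVA lungs. The saline lungs were wider apart, with -3.99 and -3.46 in the knockout and -4.43, -3.54 and -3.14 in the wild type. OVA minus saline was 0.45 ± 0.29 in the wild type (limma adjusted p = 0.29, slides 1.15, 0.25 and -0.04). It was -0.18 ± 0.32 in the knockout (adjusted p = 0.764, slides -0.44 and 0.16).

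Wild-type saline array 1 stood apart for the B cell genes and bears on these wild-type differences. Against the mean of the other 2 wild-type saline arrays it was lower by 2.02 (Pax5), 1.60 (Ms4a1), 1.40 (Cd79b and Pou2af1) and 1.1 (Blk), on log2. Only 0.105% to 1.14% of 21872 genes were as low or lower on that array. Prdm1 was lower there by 0.66, and Jchain (0.69) and Tnfrsf17 (0.35) were higher. Without that array OVA minus saline in the wild type was 0.36 for Ms4a1, 0.23 for Cd79b, 0.25 for Pax5 and 0.09 for Blk, against 0.89, 0.70, 0.93 and 0.45 with it. It was 0.70 for Jchain and 0.39 for Tnfrsf17 without it.

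Counted over the set, 1 of 8 genes was called higher after OVA in the knockout (Jchain) and none lower, where 6.45% of all genes were called higher and 1.78% lower (8.23% in all). After OVA in the wild type 0 of 8 were called by limma, where 18.8% of all genes were called, 10.9% higher and 7.9% lower. There 1 of 8, Pou2af1, was at an unadjusted p under 0.05, beside 7987 of all 21874 genes. In the knockout 3 of 8 were at that level, Jchain and Tnfrsf17 higher and Prdm1 lower, beside 6617 of all genes. The number called in the wild type was between 0 and 4 under other settings. The median of the 8 differences was -0.04 in the knockout and 0.58 in the wild type (0.31 without wild-type saline array 1), beside -0.01 and 0.02 over all genes. In the knockout the OVA arrays were all above the saline arrays for 2 genes (Jchain and Tnfrsf17) and all below for 1 (Prdm1), where 24.4% of all genes were above and 24.5% below. In the wild type they were all above for 2 (Ms4a1 and Pou2af1) and below for none, where 22.2% and 20.5% of all genes were.

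**Figure D2:**
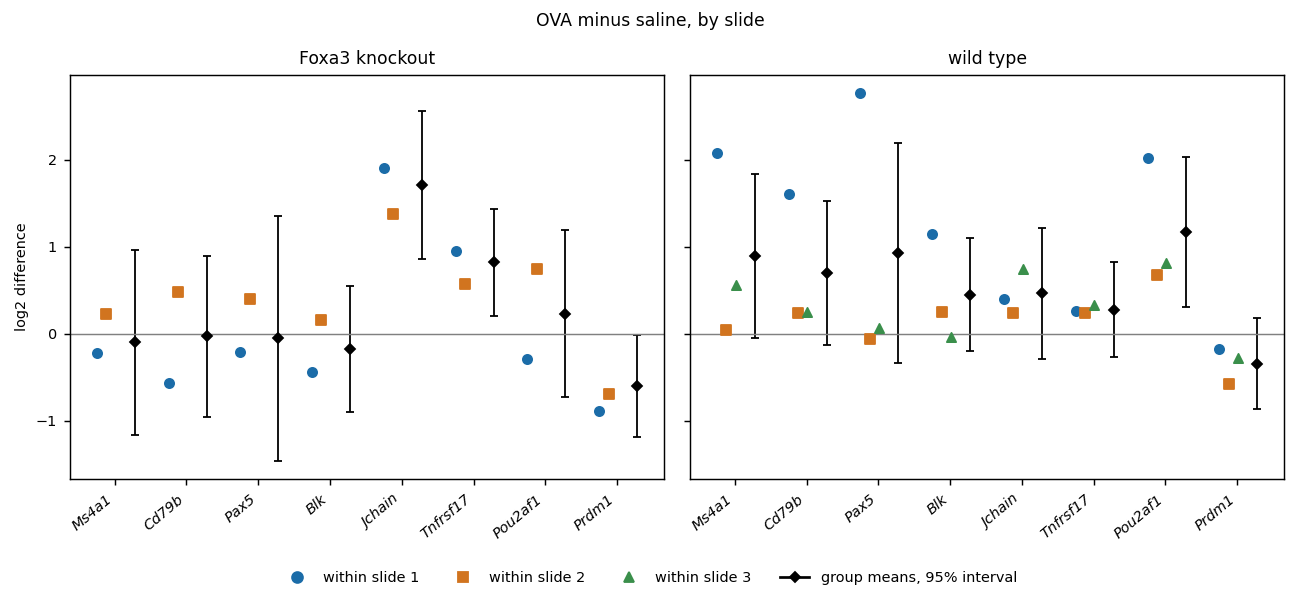
OVA minus saline for the 8 genes (y axis, log2 difference; x axis, gene) in the knockout, on the left, and the wild type, on the right. Coloured points are differences between 2 arrays of 1 slide, and black diamonds are differences of group means with 95% intervals from limma. Jchain in the knockout was at 1.91 and 1.38, and Ms4a1, Cd79b, Pax5, Blk and Pou2af1 in the wild type were highest on slide 1.

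Between genotypes after OVA the set was divided: the B cell genes were lower, and Jchain and Tnfrsf17 higher, in knockout OVA lungs, and no gene passed the test. The limma test called 0 of 8, where 0.21% of all genes were called, 0.0549% higher and 0.155% lower. Jchain and Blk, 2 of 8, were at an unadjusted p under 0.05, beside 1093 of all 21874 genes. Knockout minus wild type after OVA was 1.01 ± 0.34 for Jchain (adjusted p = 0.68) and 0.51 ± 0.24 for Tnfrsf17 (adjusted p = 1.00 to 2 decimals). Both were positive on each slide, with 0.54, 1.67 and 0.81 for Jchain and 0.07, 0.98 and 0.47 for Tnfrsf17 on slides 1 to 3. The 95% interval was 0.25 to 1.76 for Jchain and -0.04 to 1.06 for Tnfrsf17.

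The same difference was negative for all 4 B cell stage genes and for Pou2af1. It was -0.88 ± 0.42 for Ms4a1 (slides -0.74, -0.65 and -1.27) and -0.61 ± 0.37 for Cd79b (slides -0.71, -0.38 and -0.73). For Blk it was -0.65 ± 0.29 (slides -0.63, -0.54 and -0.79), and the 95% interval reached from -1.30 to 0.00. Pou2af1 differed by -0.46 ± 0.38 (slides -0.49, -0.14 and -0.73) and Pax5 by -0.51 ± 0.56 (slides -0.62, -0.11 and -0.80). For Prdm1 the value was 0.02 ± 0.23, with both signs among the slides. Every difference but that of Prdm1 thus had 1 sign on all 3 slides. Some sizes moved with 1 array: without wild-type OVA array 1 the difference was 0.64 for Jchain and 0.31 for Tnfrsf17, and without wild-type OVA array 3 it was -0.26 for Pax5.

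The knockout OVA and wild-type OVA arrays did not overlap for 6 of the 8 genes. Jchain and Tnfrsf17 were above, where 3.66% of all genes had all 3 knockout arrays above the wild-type ones. Ms4a1, Cd79b, Blk and Pou2af1 were below, where 4.57% of all genes were. The genes are not independent of each other, since they mark the same cells and were measured on the same 6 arrays. The wild-type OVA arrays also enter the OVA comparison in the wild type, so these values and those above share arrays.

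After saline no gene of the set was called by limma between knockout and wild type (none at an unadjusted p under 0.05 either), where 0.096% of all genes were called, 0.0274% higher and 0.0686% lower. The arrays overlapped for all 8 genes, where 10.8% of all genes had the knockout arrays above and 10.7% below. The differences ran from -0.24 (Jchain) to 0.48 (Pou2af1), with SE between 0.26 and 0.62, and none of the 8 genes kept 1 sign on both slides. For Ms4a1 the difference was 1.57 on slide 1, which holds wild-type saline array 1, and -0.84 on slide 2, which holds knockout saline array 1. Levels on knockout saline array 1 were below those on knockout saline array 2 for Ms4a1, Cd79b, Pax5, Blk and Pou2af1. Without wild-type saline array 1, knockout minus wild type after saline was -0.43 for Ms4a1, -0.34 for Cd79b, -0.21 for Pax5 and -0.39 for Blk. It was 0.01 for Pou2af1, -0.01 for Jchain, 0.07 for Tnfrsf17 and 0.06 for Prdm1, and limma called none. When each array was left out in turn, the highest value was 0.50 for Ms4a1, 0.53 for Cd79b, 1.01 for Pax5 and 0.26 for Blk.

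The difference of the OVA effects, knockout minus wild type, was called for none of the 8 genes, where 0.00457% of all genes (1 gene) were called. It was 1.24 ± 0.50 for Jchain (95% interval 0.11 to 2.38, unadjusted p = 0.0353, limma adjusted p = 1.00 to 2 decimals) and 0.55 ± 0.36 for Tnfrsf17. For the B cell genes it was between -0.99 (Ms4a1) and -0.63 (Blk), each with a 95% interval that held 0. Without wild-type saline array 1 these values were -0.45 for Ms4a1, -0.26 for Cd79b and Blk, and -0.30 for Pax5. Without slide 1 they were -0.13 for Ms4a1 and -0.01 for Blk, and positive for Cd79b (0.20) and Pax5 (0.29). So the called rise of Jchain in the knockout was not shown to differ from the change in the wild type.

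**Figure D3:**
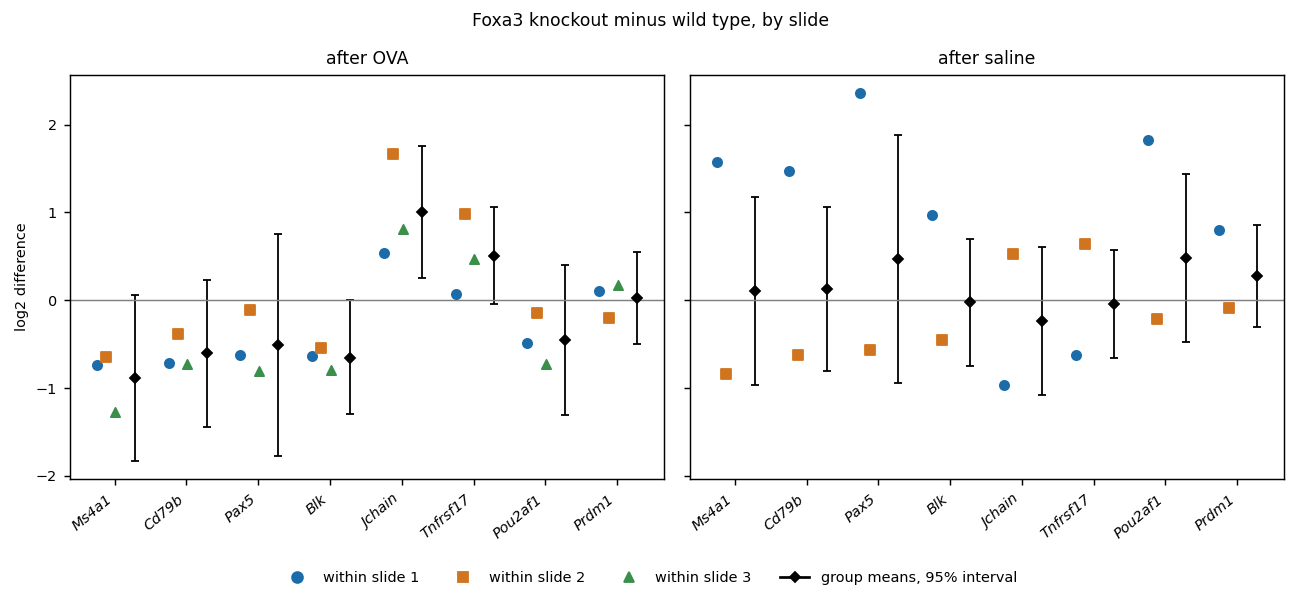
Foxa3 knockout minus wild type for the 8 genes (y axis, log2 difference; x axis, gene) after OVA, on the left, and after saline, on the right. Coloured points are differences between 2 arrays of 1 slide, and black diamonds are differences of group means with 95% intervals from limma. After OVA the points of Ms4a1, Cd79b, Pax5, Blk and Pou2af1 lay below 0 on all 3 slides and those of Jchain and Tnfrsf17 above it, while after saline each gene had both signs.

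Among themselves the genes fell by likeness of pattern, measured as the root mean square difference of log2 levels over the 11 arrays after each gene was centred on its own mean. The nearest pair was Cd79b and Blk (0.17), followed by Ms4a1 with Cd79b (0.21) and Cd79b with Pou2af1 (0.24). Jchain and Tnfrsf17 differed by 0.36 from each other and by 0.88 to 1.03 and 0.67 to 0.85 from the B cell genes and Pou2af1. Within the set Prdm1 was nearest to Blk (0.47), which was farther than its median distance to all genes compared (0.40). These values describe 11 arrays that share their slides and their scaling.

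The same measure against 14911 genes named the 3 nearest to each member. For Ms4a1 these were Bank1 (0.15), Fcrl1 (0.17) and Gpr174 (0.18), beside a median of 0.65 over all genes. For Cd79b they were Ighm (0.08), the IgM heavy chain, Siglecg (0.09), a B cell sialic acid receptor, and Cd79a (0.12), the partner chain of Cd79b, beside a median of 0.55. Blk was nearest to Cd79a (0.10), Srpk3 (0.15) and Pou2f2 (0.16), an octamer-binding factor, and Pax5 to a kappa light chain variable segment (0.23), Bank1 (0.24) and Fcrl1 (0.25). Several of the nearest genes of the B cell stage members are thus other B cell genes. For Pou2af1 the nearest were Bfsp2 (0.15), Ly6d (0.19) and Slc28a2 (0.20). Jchain had no neighbour as close: Slc12a8 (0.34), Tnfrsf17 (0.36) and Tspan33 (0.38), beside a median of 0.79. For Tnfrsf17 they were Adam23, Prss57 and Ahrr (0.22 to 0.24), beside a median of 0.49. For Prdm1 they were Erbb3, Rhebl1 and Hoxb2 (0.11 to 0.14), beside a median of 0.40.

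Other B cell genes, from a list, were read in the same comparisons. Of 23 measured genes of a B cell list, 4 rose and 1 fell after OVA in the wild type and none was called in the knockout. At an unadjusted p under 0.05 were 6 in the knockout and 10 in the wild type, beside 6617 and 7987 of all 21874 genes. Over all genes, as given above, 10.9% were called higher and 7.9% lower in the wild type, and 6.45% higher and 1.78% lower in the knockout, and the counts of each list are to be read beside these shares. Cd72, a B cell co-receptor, rose by 2.21 ± 0.26 in the wild type (4.64-fold, limma adjusted p = 0.00241, slides 3.02, 1.67 and 1.95), and its difference in the knockout was 0.98 ± 0.30 (adjusted p = 0.0714). In the wild type the adaptor Blnk rose by 1.27 ± 0.32 (adjusted p = 0.0295) and the kinase Btk by 0.79 ± 0.22 (adjusted p = 0.0412). Vpreb3, a surrogate light chain gene, fell there by 0.62 on the log2 scale (SE 0.16, adjusted p = 0.0305). The knockout differences were of similar size without a call: 1.04 for Blnk, 0.66 for Btk and -0.58 for Vpreb3 (limma adjusted p = 0.096, 0.12 and 0.0714). The other gene called was Spib (1.11, adjusted p = 0.0454), a factor of B cells and plasmacytoid dendritic cells, named after its value was seen. Without wild-type saline array 1 the list had 1 gene up and 1 down in the wild type, and its median there was 0.29 in place of 0.79. With slide as a block it had 1 up and none down in the wild type. Cd72 was the one riser called there under both of these settings. In the knockout Cd72 gained a call without wild-type saline array 1 (limma adjusted p = 0.045) but not with slide as a block (0.136).

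Knockout minus wild type after OVA was negative for 22 of the 23 genes, with a median of -0.59 (all genes 0.01), and limma called 0 (2 at an unadjusted p under 0.05). Slide by slide the median was -0.60, -0.32 and -0.78. The knockout OVA arrays were all below the wild-type OVA arrays for 12 of the 22 genes with a value on every array, beside the 4.57% of all genes given above. On knockout OVA arrays the mean level of the list was -0.71 to -0.59, against -0.39 to -0.01 on wild-type OVA arrays. After saline it was -1.09 to -0.41 in the knockout and -1.51 to -0.38 in the wild type. The median of knockout minus wild type after saline was 0.06, and -0.27 without wild-type saline array 1, with no gene called. After saline 0 of the 22 genes had groups that did not overlap, where 10.8% of all genes had the knockout arrays above and 10.7% below.

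**Figure D4:**
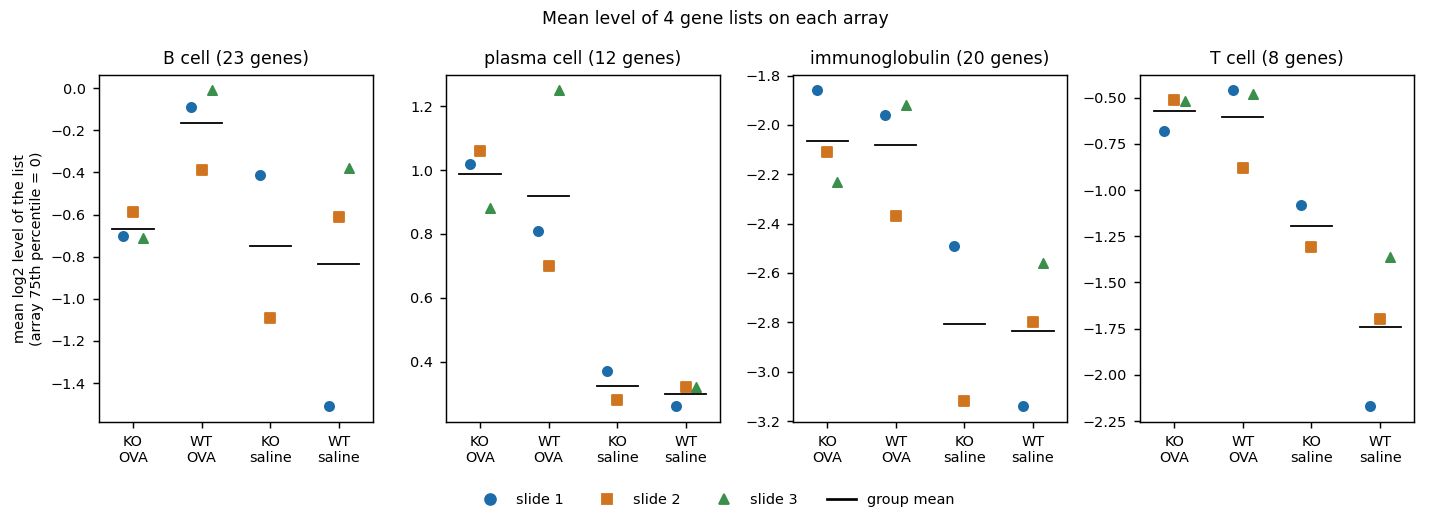
Mean log2 level of 4 gene lists on each of the 11 arrays (y axis, array 75th percentile at 0; x axis, genotype and challenge). Each point is 1 array with its slide as shape and colour, and the line is the group mean. The B cell list was at -0.71 to -0.59 on knockout OVA arrays and -0.39 to -0.01 on wild-type OVA arrays, whereas these groups overlapped for the plasma cell, immunoglobulin and T cell lists.

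Plasma cell genes outside the set were mostly higher after OVA in both genotypes, with 10 of 12 positive differences in the knockout and 11 of 12 in the wild type. Of these genes, 4 rose in the knockout and 6 in the wild type, and none fell. Derl3, a factor of protein quality control in the endoplasmic reticulum, rose by 1.44 ± 0.23 in the knockout (2.72-fold, limma adjusted p = 0.00858) and by 0.90 ± 0.20 in the wild type (1.86-fold, adjusted p = 0.0212). Slamf7, a surface receptor of plasma cells and natural killer cells, rose by 1.63 ± 0.34 in the knockout (adjusted p = 0.0259) and by 1.76 ± 0.30 in the wild type (adjusted p = 0.00865). The folding enzyme Fkbp11 rose by 0.96 ± 0.22 in the knockout and by 0.66 ± 0.20 in the wild type (adjusted p = 0.0338 and 0.0463). Edem1, which marks misfolded glycoproteins for disposal, rose by 0.52 ± 0.12 in the wild type (adjusted p = 0.0213), and its difference in the knockout was 0.47 ± 0.13 (adjusted p = 0.0587). Other genes of the list are named after their values were seen. Irf4 rose by 1.72 in the knockout (limma adjusted p = 0.0396) and by 1.52 in the wild type (adjusted p = 0.0268). Mzb1 rose by 0.92 in the wild type (adjusted p = 0.0255), with 0.89 in the knockout (adjusted p = 0.0587). These calls were lost without wild-type saline array 1, and that of Irf4 in the knockout also with slide as a block (0.0849). Mzb1 in the knockout gained a call without wild-type saline array 1 (limma adjusted p = 0.0475). Xbp1, Sdc1 and Cd38 were near 0. Xbp1, the factor of the secretory programme, differed by -0.23 in the knockout and 0.00 in the wild type, Sdc1 (CD138) by 0.01 in the knockout and 0.10 in the wild type, and Cd38 by -0.04 in the knockout and -0.15 in the wild type. The list median was 0.54 in the knockout and 0.52 in the wild type. Agr2 and Muc5b of mucous cells rose too, as given below. The part of such cells in the rises of Derl3, Fkbp11 and Edem1 was not tested. With slide as a block 1 of the 12 was called in the knockout and 5 in the wild type. Without wild-type saline array 1 the knockout had 3 and the wild type 1. Slamf7 in the knockout (adjusted p = 0.065) and Fkbp11 in both genotypes lost their calls with slide as a block, and Derl3 (0.0633), Edem1 and Fkbp11 in the wild type and Fkbp11 in the knockout (0.0523) lost theirs without that array. Between genotypes after OVA the median was 0.03, and limma called 0 (2 at an unadjusted p under 0.05).

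Immunoglobulin genes were read by 46 probes for 22 names, of which 44 probes and 20 names passed the filter. Their probes cover near-identical gene segments, so a signal may come from more than the segment named. OVA minus saline was positive for 39 of 44 probes in the knockout and 43 of 44 in the wild type. Igh-1a, the heavy chain of IgG2a by the file's description, rose by 3.77 ± 0.55 in the knockout (13.7-fold, limma adjusted p = 0.00664) and by 2.48 ± 0.49 in the wild type (5.58-fold, adjusted p = 0.0142). Its levels were -0.41, -2.31 and -0.98 in knockout OVA lungs, -3.24, -2.90 and -3.65 in wild-type OVA lungs, -4.97 and -5.04 in knockout saline lungs and -4.97, -5.91 and -6.36 in wild-type saline lungs. All 3 knockout OVA arrays were above the wild-type OVA arrays, as for Jchain, but the difference of 2.03 ± 0.49 was not called (adjusted p = 0.286). Of the 20 names, 2 had the knockout OVA arrays all above and 4 all below, beside 3.66% and 4.57% of all genes. Ighm was among those below, at 4.66 to 4.88 in knockout OVA and 5.38 to 5.47 in wild-type OVA lungs. A second Igh-1a probe differed by 1.89 in the knockout (limma adjusted p = 0.0721) and 0.92 in the wild type (adjusted p = 0.229), which are not calls. Igkv8-16 (1.60, adjusted p = 0.0183) and Igk-V1 (0.79, adjusted p = 0.0259), light chain variable segments, rose in the wild type, and their differences in the knockout were 0.49 and 0.32 (adjusted p = 0.431 and 0.345). Both wild-type calls were lost without wild-type saline array 1 (adjusted p = 0.0614 and 0.0789). Probe by probe, 3 were called higher in each genotype; in the knockout these were Igh-1a, 1 probe of Ighg1 (3.61, limma adjusted p = 0.0468) and 1 of Ighg (2.45, adjusted p = 0.0263), the last 2 named after their values were seen. Between genotypes after OVA 16 of 44 probes were positive and 28 negative, with 0 called by limma (by gene, 2 of 20 at an unadjusted p under 0.05).

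Genes of the germinal centre, the site where B cells mature their antibodies, were mostly not called. Of 7 measured, 1 rose in the knockout, and 1 rose and 1 fell in the wild type. Ung, a uracil glycosylase of antibody diversification that is also a DNA replication gene, rose by 1.86 ± 0.34 in the knockout (limma adjusted p = 0.0161) and by 1.70 ± 0.31 in the wild type (adjusted p = 0.0102). The death receptor Fas fell by 0.51 on the log2 scale in the wild type (adjusted p = 0.0391), a call lost with slide as a block (0.0608) and without wild-type saline array 1 (0.111). Beside Ung, all 10 of 10 cell cycle genes rose in both genotypes, such as Ccnb1 (2.95 in the knockout, 2.56 in the wild type) and Birc5 (3.12 in the knockout, 2.61 in the wild type), and their part in the Ung result was not tested.

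Signals that attract B cells or help them survive were mostly higher after OVA in both genotypes. Of 13 measured, 5 rose in the knockout and 9 in the wild type, with medians of 1.11 and 1.17. Cxcl13, the chemokine that draws B cells into follicles, rose by 4.14 ± 0.38 in the knockout (17.6-fold, limma adjusted p = 0.00142, slides 4.18 and 4.16) and by 4.25 ± 0.34 in the wild type (19.1-fold, adjusted p = 0.000532). Tnfsf13b, the survival factor BAFF and a ligand of Tnfrsf17, rose by 1.11 ± 0.16 in the knockout and by 1.05 ± 0.14 in the wild type (adjusted p = 0.00664 and 0.00382). Cd40, the receptor for T cell help, rose by 0.76 ± 0.19 in the knockout and by 1.17 ± 0.17 in the wild type (adjusted p = 0.0447 and 0.00459). Il21, a T cell cytokine for B cells, was well above background on 2 of 3 wild-type OVA arrays and on no wild-type saline array, so it was at least 1.75-fold higher after OVA in the wild type (adjusted p = 0.00531). On the knockout side it was well above background on 1 of 3 OVA arrays and on neither saline array. With slide as a block the list had 2 genes up in the knockout and 8 in the wild type, and without wild-type saline array 1 it had 4 in the knockout and 5 in the wild type. Cd40 in the knockout lost its call with slide as a block (adjusted p = 0.0995) and without that array (0.063). Cxcl12, named after its value was seen, differed by -0.46 in the knockout and -0.40 in the wild type, without a call. Between genotypes after OVA the median was -0.20 and limma called none (1 at an unadjusted p under 0.05), with Cxcl13 at -0.40 ± 0.34 and Tnfsf13b at 0.00 ± 0.14.

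T cell genes were higher after OVA in both genotypes, where the median of the B cell list was -0.02 in the knockout and 0.79 in the wild type. Of 8 T cell genes, 1 rose in the knockout and 6 in the wild type, among them Cd5, a receptor that B-1 cells also carry, by 1.01 in the knockout (limma adjusted p = 0.0405) and 1.47 in the wild type (adjusted p = 0.00492). The knockout call of Cd5 was lost with slide as a block (adjusted p = 0.0732). Cd3d, a chain of the T cell receptor complex, differed by 0.84 in the knockout (adjusted p = 0.0828) and rose by 1.39 in the wild type (adjusted p = 0.0089). On wild-type saline array 1 the mean of the T cell list was also the lowest of the 11 arrays (-2.17, against -1.70 and -1.36 on the other 2). Between genotypes after OVA the T cell median was 0.04, with slides -0.28, 0.47 and 0.00. The log2 of the summed T cell level was 3.43 to 3.88 on knockout OVA and 3.36 to 3.83 on wild-type OVA arrays, so these groups overlapped. For the B cell list the summed level was 4.94 to 5.24 on knockout OVA and 5.22 to 5.68 on wild-type OVA arrays, a slight overlap, whereas its mean levels did not overlap.

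Natural killer cell genes were lower on the knockout OVA arrays, like the B cell list. All 6 had negative differences between genotypes after OVA, with a median of -0.66 (slides -0.93, -0.67 and -0.56). For 5 of 6 the knockout OVA arrays were all below the wild-type OVA arrays, beside 4.57% of all genes. None was called by limma, and all 6 were at an unadjusted p under 0.05, as were 1093 of all 21874 genes. Their summed level was 1.18 to 1.51 on knockout OVA and 1.87 to 2.15 on wild-type OVA arrays (log2). OVA minus saline had a median of -0.53 over the 6 genes in the knockout, where only Eomes was positive. In the wild type the median was 0.17, with 5 of 6 positive. After OVA in the wild type Eomes rose by 1.53 (limma adjusted p = 0.0326), with 0.88 in the knockout (adjusted p = 0.221). The Eomes call was lost with slide as a block (0.0541) and without wild-type saline array 1 (0.0919). Plasmacytoid dendritic cell genes, some of which B cells share, were negative for 7 of 7, with a median of -0.32. Of these, limma called 0, and 3 were at an unadjusted p under 0.05. For 3 of 7 the knockout OVA arrays were all below the wild-type OVA arrays. Their mean level was -0.45 to -0.34 on knockout OVA and -0.1 to 0.18 on wild-type OVA arrays. Their summed level was 5.27 to 5.55 on knockout OVA and 6.02 to 6.42 on wild-type OVA arrays. Most of that sum was Bst2 alone, at 4.54 to 5.10 on knockout OVA and 5.61 to 6.16 on wild-type OVA arrays. Bst2, an interferon-induced gene on that list, rose by 0.84 in the knockout and by 1.79 in the wild type (adjusted p = 0.0454 and 0.0015), and Ccr9 rose by 0.81 in the wild type (adjusted p = 0.0216), with 0.38 in the knockout. Without wild-type saline array 1 the calls of Bst2 in the knockout (0.0578) and Ccr9 (0.0617) were lost, and the list had 1 gene up in the wild type in place of 3. The part of these cells in the differences of the B cell genes was not tested.

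Macrophage genes rose after OVA in both genotypes and overlapped between genotypes. Of 8 macrophage and monocyte genes, 6 rose in the knockout and 8 in the wild type. With slide as a block these counts were 4 in the knockout and 5 in the wild type, and without wild-type saline array 1 they were 5 in each. The Fc receptor Fcgr1 rose by 1.93 in the knockout (adjusted p = 0.0674 with slide as a block) and 3.09 in the wild type, and the complement chain C1qb by 2.71 in the knockout and 2.74 in the wild type. Of the 8, 7 had negative differences between genotypes after OVA and none had arrays that did not overlap. Their median difference between genotypes after OVA was -0.16, with 0.94 on slide 2 and -0.36 and -1.11 on slides 1 and 3. Of 8 airway epithelial genes, 2 rose in the knockout and 3 in the wild type, among them Agr2, a folding factor of mucous cells (3.60 in the knockout, 2.66 in the wild type), and the mucin Muc5b (1.59 in the knockout, 0.99 in the wild type), and the median between genotypes after OVA was 0.10.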

How the data were processed

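Total lung RNA was extracted on columns and labelled with a one-colour kit, per the labels' protocols. The intensity values are Agilent Feature Extraction output that the authors deposited, 1 file per array (version 9.5.1.1 per the file headers, 9.1 per the submitters' processing notes), with spot background removal and no scaling between arrays. The log2 values of the authors' deposited value table share a median near 7.67 on every array; how they were normalized is not given in the sources used here, and they served as an alternative.

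Control spots and outlier flags were left out and spots of a probe averaged. The 75th percentile of each array was taken off its log2 processed intensity. A probe entered when 2 or more of the 11 arrays had it well above background, and the brightest probe stood for its gene. Names came from a GRCm38.p6 RefSeq table: 22951 probes matched by accession, 6659 by symbol and 3109 by synonym, while 8455 stayed under the file's own name. One limma model (3.58.1, R 4.3.3) with a mean per group was fitted to the 11 arrays, two-sided, with Benjamini-Hochberg adjustment over 21874 genes and a threshold of 0.05; it was tested on simulated data. Array number limits the precision. Replicate numbers from the labels showed little pairing of the arrays (4 of 15 same-numbered pairs had a correlation of deviations over 0.1). With 2 or 3 arrays a group this cannot exclude a pairing. Of the same-slide pairs, 12 of 15 were over 0.1 (highest 0.47). The model has no slide term, and slide as a block is an alternative. Genes named outside the set are, by rule, up to 4 called genes of smallest p from each B cell related list, up to 2 from each list of other cells, and the 3 most alike genes of each member; others are named as seen first. For Il21, which lies below background in both saline groups, the fold is at least that to the lowest signal well above background. The members, lists and tests were chosen with earlier results of these data known. Alternatives were background correction, scaling, filter, probe choice, prior, weights, slide and replicate blocks, the value table, and leaving out arrays or slides.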

Additional observations from a re-analysis of the deposited data

How the results depend on the processing

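Of 1072 recomputed differences of single genes under 27 alternatives, 1050 stayed on their side of the threshold, 11 passed it only under the alternative, 11 lost it, and no called one turned sign. Among the differences that were not called, 62 turned sign, of sizes up to 0.98 as designed. After OVA in the wild type, the count of called genes of the 8 was 0 as designed. It was 1 when 8 arrays had to be well above background, with a trended and robust prior, with a replicate block and from the authors' value table, in each case Pou2af1. It was 2 with normexp without spots of far brighter local background (chosen after seeing the data) and 4 with array weights, and without 1 array it ran from 0 to 1. After OVA in the knockout, the count was 1 as designed and 0 with normexp background correction, with a slide block, with a replicate block and without slide 1, 2 or 3, and it ran from 0 to 1 without 1 array. The replicate block gave Jchain 1.65 with a limma adjusted p of 0.0953 there, against a difference of 1.71 as designed. It gave Pou2af1 1.17 with 0.0403 in the wild type. Whether the replicate numbers pair the samples cannot be settled from 2 or 3 arrays a group. The cause of these moves was not tested. The other 3 comparisons had 0 called members under every setting run. Members of 1 sign on every slide numbered the same from the authors' value table as from the scanner values (6, 3, 7 and 0 for OVA in the wild type, OVA in the knockout, genotype after OVA and genotype after saline).

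Over all genes, calls after OVA in the wild type (4108) fell to 10 with normexp, 2718 with a slide block, 2039 with only the groups compared, 27, 1874 and 521 without slides 1, 2 and 3, and were 10449 with array weights. Without 1 array they ran from 1052 to 6264. In the knockout (1801) they were 0 with normexp (2226 at an unadjusted p under 0.05), 845 with a slide block, 715 with a replicate block, 444 with only the groups compared, 3515 with array weights, 2771 with a trended and robust prior, 2856 from the value table, and 13 and 3 without slides 1 and 2. Without 1 array these ran from 83 to 3306. Where a leave-out leaves 1 array in a group, that array is assumed to vary like the rest. Between genotypes the calls over all genes ran from 1 (normexp) to 102 (array weights) after OVA, where 46 were called as designed, and from 1 (without slide 1) to 54 (array weights) after saline, where 21 were.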
